A study of Saccharomyces cerevisiae with 12 samples.

Results

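The mating genes of the budding yeast Saccharomyces cerevisiae were compared between untreated cultures and cultures given a lectin, a sugar-binding protein, from the clam Cyclina sinensis. The genes were chosen by systematic name, and are 10 of the 7192 features in the deposited count table. They encode the secreted pheromones (MFA1, YDR461W; MFA2, YNL145W; MF(ALPHA)1, YPL187W; MF(ALPHA)2, YGL089C) and their receptors (STE2, YFL026W; STE3, YKL178C). The others encode the protease that degrades alpha-factor (BAR1, YIL015W) and the agglutinins that glue mating cells together (SAG1, YJR004C; AGA1, YNR044W; AGA2, YGL032C). The list was drawn up with earlier results of the same lectin comparison known, among them the large decrease of MFA2. The changes of these 10 genes are therefore given as a description without p-values. Calls at the adjusted p threshold are given for them too, and are not independent evidence. All 10 passed the filter on low counts, which kept 6237 features for testing.

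The series holds 12 RNA-seq libraries, 6 of untreated control cells and 6 of cells treated with the lectin, and the samples are named by group and by the number in their titles. Per the labels, all cells were wild-type and grew exponentially at 30 °C in shaken YPD medium (200 rpm), which is rich in glucose. The strain, its ploidy and mating type, the dose of the lectin and the time of treatment are not given in the sources used here. Nothing in the labels says whether the libraries of a group came from separate cultures, so the spread between them may be partly technical.

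Haploid budding yeast comes in a pair of mating types, a and alpha, set by the allele at the MAT locus. An a cell secretes a-factor, displays the alpha-factor receptor and makes the a-agglutinin adhesion subunit; an alpha cell secretes alpha-factor and displays the a-factor receptor and alpha-agglutinin. In alpha cells the alpha2 protein, bound together with Mcm1, silences the a-specific genes, and the alpha1 protein with Mcm1 activates the alpha-specific genes. In a/alpha diploids alpha2 still silences the a-specific genes, alpha1 is not made, and the a1-alpha2 repressor shuts off a further group of haploid-specific genes.

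The a-specific genes share an operator upstream of the start codon, to which alpha2 and Mcm1 bind in alpha and diploid cells. The sequences below are shown because this operator is what joins MFA1, MFA2, STE2, BAR1 and AGA2, and because STE6 and ASG7, a-specific genes outside the group of 10, carry it as well. Each is written 5′ to 3′ on the strand of its gene in the R64 genome from RefSeq, and capitals mark the 17-base match to GTNNNNNCCNNNNNNGG on either strand.

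MFA1, chrIV:1384935-1384971: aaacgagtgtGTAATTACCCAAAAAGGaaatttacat

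MFA2, chrXIV:352156-352192: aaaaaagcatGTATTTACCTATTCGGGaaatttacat

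STE2, chrVI:82352-82388: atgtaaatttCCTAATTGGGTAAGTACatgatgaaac

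BAR1, chrIX:322071-322107: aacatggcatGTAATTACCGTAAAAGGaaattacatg

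AGA2, chrVII:437102-437138: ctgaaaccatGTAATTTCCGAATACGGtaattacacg

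STE6, chrXI:46478-46514: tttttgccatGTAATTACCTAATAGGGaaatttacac

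ASG7, chrX:101906-101942: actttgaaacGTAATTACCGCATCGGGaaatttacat

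The genes of AGA2, STE6 and ASG7 lie on the minus strand and the others on the plus strand. The match begins between 153 bases (ASG7) and 295 bases (AGA2) before the start codon. In BAR1 and AGA2 a second match on the opposite strand overlaps the one shown, and in STE2 the match is on the opposite strand. This pattern and the pattern of the MF(ALPHA)1 and SAG1 promoters below were written down after these sequences had been looked at. So were the repeat start of the alpha-factor genes and the length of the window. The a-specific pattern occurs in 444 of 6000 windows of 500 bases before the start codons of protein-coding genes (7.4%), and in none of the windows of the alpha-specific genes or AGA1.

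A second pattern, TAGNNCNTCAANG, resembles the element to which alpha1 and Mcm1 bind. It was found upstream of MF(ALPHA)1 and SAG1 but not of the other alpha-specific genes, MF(ALPHA)2 and STE3. Over all genes it occurred in 16 of the 6000 windows (0.267%), searched on both strands. Both matches are shown, with capitals marking the pattern; SAG1 lies on the minus strand and the pattern on the strand opposite to the gene.

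MF(ALPHA)1, chrXVI:193335-193367: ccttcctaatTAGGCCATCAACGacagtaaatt

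SAG1, chrX:445194-445226: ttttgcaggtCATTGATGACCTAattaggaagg

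The pheromone response element TGAAACA, the binding sequence of the mating transcription factor Ste12, was present on either strand in the windows of MFA1, MFA2, STE2, BAR1, AGA2, MF(ALPHA)2, SAG1 and AGA1, and in 721 of the 6000 windows (12%). MFA2, STE2, BAR1, AGA2 and MF(ALPHA)2 each had 2 copies.

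The pheromone genes are short, which matters for their counts. MFA1 (111 bases) and MFA2 (117 bases) each encode one copy of the a-factor precursor, which is trimmed, given a lipid group at its tail and exported. Their coding sequences are shown with the 4 codons of the tail that receives the lipid in capitals.

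MFA1, chrIV:1385176-1385286: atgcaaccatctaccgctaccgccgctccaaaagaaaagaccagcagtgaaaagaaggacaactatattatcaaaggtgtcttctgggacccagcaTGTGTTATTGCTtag

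MFA2, chrXIV:352414-352530: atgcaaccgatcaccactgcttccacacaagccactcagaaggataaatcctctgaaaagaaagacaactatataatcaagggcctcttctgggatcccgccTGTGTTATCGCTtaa

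The last 63 bases of the pair are identical at 53 positions, but the longest identical run is 11 bases, so a read of either gene differs from the other. Alpha-factor is instead cut out of a precursor with several copies of the peptide. The end of each alpha-factor gene is shown from the first copy onward, with capitals marking the 9 bases TGGCANTGG at the start of each copy.

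MF(ALPHA)1, chrXVI:193915-194145: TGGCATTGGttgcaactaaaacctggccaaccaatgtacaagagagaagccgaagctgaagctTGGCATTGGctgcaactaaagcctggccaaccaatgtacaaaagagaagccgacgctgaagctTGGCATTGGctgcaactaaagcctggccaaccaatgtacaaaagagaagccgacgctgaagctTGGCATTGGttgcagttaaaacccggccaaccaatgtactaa

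MF(ALPHA)2, chrVII:344791-344895 (minus strand): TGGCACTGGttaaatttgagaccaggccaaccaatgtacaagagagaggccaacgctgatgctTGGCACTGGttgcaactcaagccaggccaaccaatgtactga

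MF(ALPHA)1 holds 4 copies and MF(ALPHA)2 holds 2, and the longest run that the genes share is 23 bases. No RefSeq gene overlaps any of the 10, although features of the count table outside RefSeq were not placed on the genome here.

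The libraries held 17303313 to 21354011 counts, and 3 counts, taken as the smallest detectable level, were 0.14 to 0.173 in units of CPM, where each count is scaled by its library's total; that limit takes in counting error alone. Lectin 5 had the largest library and stood apart from the other lectin samples. In pairs of same-group libraries, chi-square over its degrees of freedom was 26.1 to 59.1 for the pairs with lectin 5, among them the 3 highest of 30, and 6.78 to 31.5 for the others. Among the lectin samples it held the highest normalized count (count divided by the DESeq2 size factor) of MFA2, MF(ALPHA)2, STE3, TEC1, FUS2, PRM5, PCL2, MCM1, SIR2 and IME1 and the lowest of AGA1, STE6 and STE20. Its part in the results was not tested beyond leaving it out.

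Messages of both mating types were present in every library, at low to middling levels. Levels are compared between genes as CPM per kb, that is CPM divided by gene length in kilobases, and a percentile gives the place of the control mean among the 5782 tested genes of known length. For genes as short as MFA1 and MFA2, a value per kilobase depends on fragment length and on the annotation used for counting, which are not stated. In the controls, MF(ALPHA)1 stood at 117 ± 4.44 CPM per kb and MFA2 at 111 ± 6.69 (SD, n = 6 each), and their ranges over samples overlapped. SAG1 at 35.3 ± 1.72 and MFA1 at 32.7 ± 3.74 came next and overlapped as well (SD, n = 6).

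AGA1, the shared anchor of the a-agglutinin, followed at 24.6 ± 1.77 CPM per kb, below every MFA1 value (SD, n = 6). MF(ALPHA)2 at 20.1 ± 1.07, AGA2 at 18.8 ± 1.59 and STE2 at 18.5 ± 1.35 overlapped one another (SD, n = 6). The lowest were BAR1 at 8.17 ± 0.349 and STE3, the a-factor receptor, at 7.33 ± 0.394, which overlapped each other (SD, n = 6). In the lectin group the order was the same except that STE3, at 7.59 ± 0.487, stood above BAR1, at 6.78 ± 0.633, with overlapping ranges (SD, n = 6).

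Among all genes, MF(ALPHA)1 and MFA2 were at percentiles 73.7 and 72.6, and SAG1 and MFA1 at 34.7 and 31.9. STE2 was at percentile 13.7, BAR1 at 4.64 and STE3 at 4.19. Both sets of cell-type-specific messages were therefore measured side by side in each sample, with both receptors among the scarcer transcripts.

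**Figure D1:**
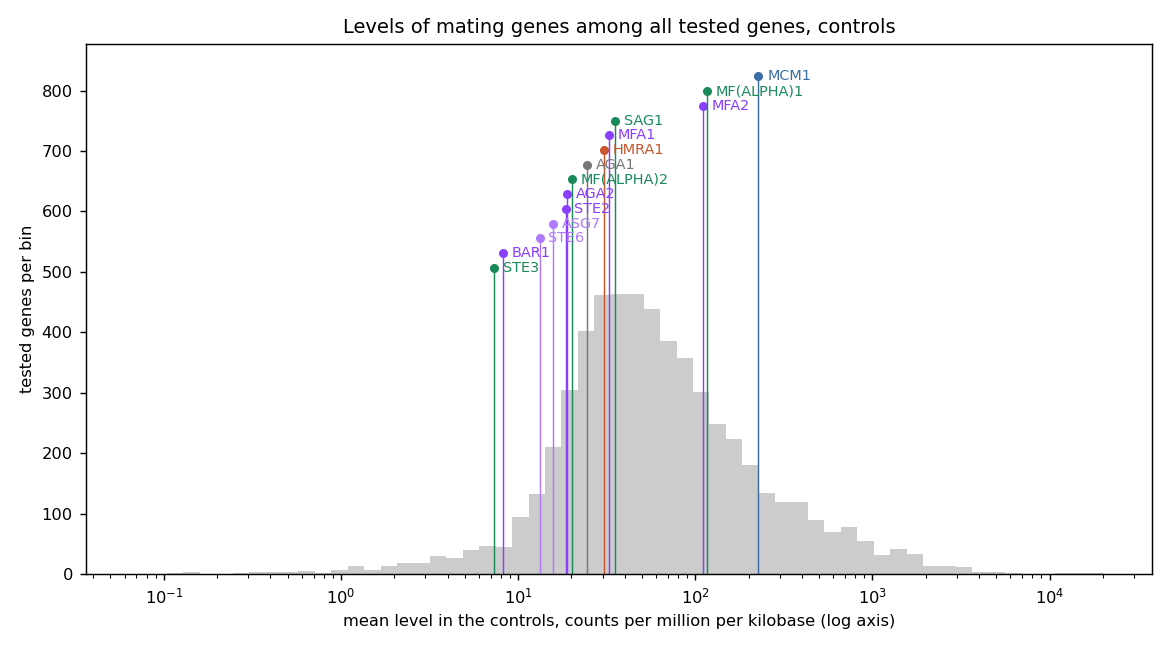
Mean level in the 6 control samples of the 10 mating genes, of STE6, ASG7, the a1 feature HMRA1 and the regulator MCM1 (lines), over the distribution of all tested genes of known length (grey), in CPM per kb on a log axis. Purple marks a-specific genes (lighter for STE6 and ASG7), green alpha-specific genes, grey AGA1, orange HMRA1 and blue MCM1; MF(ALPHA)1 and MFA2 are the highest of the 10, at percentiles 73.7 and 72.6 of all genes, and STE3 and BAR1 lie in the low tail.

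The mating-type loci were read next, since they define the cell type. The a1 feature at the silent HMR locus, HMRA1, had 223, 245 and 385 counts (lowest, median and highest) in the controls and 235, 308 and 374 in the lectin samples. The reference carries the alpha allele at MAT, so reads of an active a1 gene would also be placed on this feature. The groups overlapped, and the log2 fold change, lectin over control, was 0.12 ± 0.104 (SE; DESeq2 adjusted p = 0.382; 95% interval -0.08 to 0.33). It was 0.21 without control 4 (DESeq2 adjusted p = 0.0733) and 0.07 without lectin 6 (DESeq2 adjusted p = 0.663). HMRA2 had 5 to 18 counts per sample.

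MATALPHA1 was at 0 in all 12 libraries, and MATALPHA2 and HMLALPHA1 had at most 1 count. HMLALPHA2 had 1 to 8 counts. MATALPHA1 and HMLALPHA1 are identical over all 528 bases, and MATALPHA2 and HMLALPHA2 over all 633, and all 360 bases of HMRA2 lie within that sequence, so their reads have no unique place. With reads of several possible places left out, such features stay near 0 whatever the RNA level, and how the authors treated those reads is not stated. These counts, those of HMRA2 included, cannot be read as levels.

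The haploid-specific genes were also detected in every sample. They include GPA1, STE4 and STE18 (the G protein of the pheromone receptors), STE5 (its kinase scaffold), FUS3 (the mating kinase) and FAR1 (the cell-cycle brake). All 11 genes of that list passed the filter. Their control means ran from 2.17 CPM per kb for HO, the mating-type switching endonuclease, to 36.8 for RME1, a repressor of meiosis. The percentiles ran from 1.21 (HO) to 36.4 (RME1), so the whole list lay in the lower part of the tested genes. GPA1 was at percentile 10.5, STE5 at 5.17 and STE18 at 3.18. FAR1 was at 22.6, STE4 at 25.1 and FUS3 at 26.2. IME1, the master regulator of entry into meiosis that a/alpha diploids use, was at 39.3 ± 2.41 CPM per kb in the controls (SD, n = 6). IME2 and NDT80, from the same list of meiosis-entry genes, were lower, at 15.9 ± 0.961 and 11.1 ± 1.16 (SD, n = 6). The percentiles were 38.9 for IME1, 10.6 for IME2 and 6.43 for NDT80. IME4 was at 0 in every library, and a non-coding gene overlaps it in RefSeq. The counts come from whole cultures. A mixture of cell types and a single population, haploid or diploid, with low levels of both sets cannot be told apart from them. Fewer cells of a type and less RNA per cell cannot be told apart either.

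The 5 a-specific genes were all lower with lectin, the 4 alpha-specific genes went in different directions, and AGA1 was lower. At a DESeq2 adjusted p under 0.05 over all genes, 7 of the 10 were called lower and 1 higher, where 16.1% of all tested genes were called lower, 15.4% higher and 31.5% either way. In 4 of the 10, all lectin values lay below all control values (6.72% of all tested genes), and in 1 all lay above (5.85%). The median log2 fold change was -0.49 over the 5 a-specific genes, 0.05 over the 4 alpha-specific genes and 0.0017 over all tested genes. Since the list was drawn up with this comparison known, nothing is read from these shares. Without lectin 5, 6 of the 10 were called lower and 1 higher, AGA1 being the call lost; MFA2, STE2, MF(ALPHA)1 and SAG1 kept their calls under each alternative tried.

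**Figure D2:**
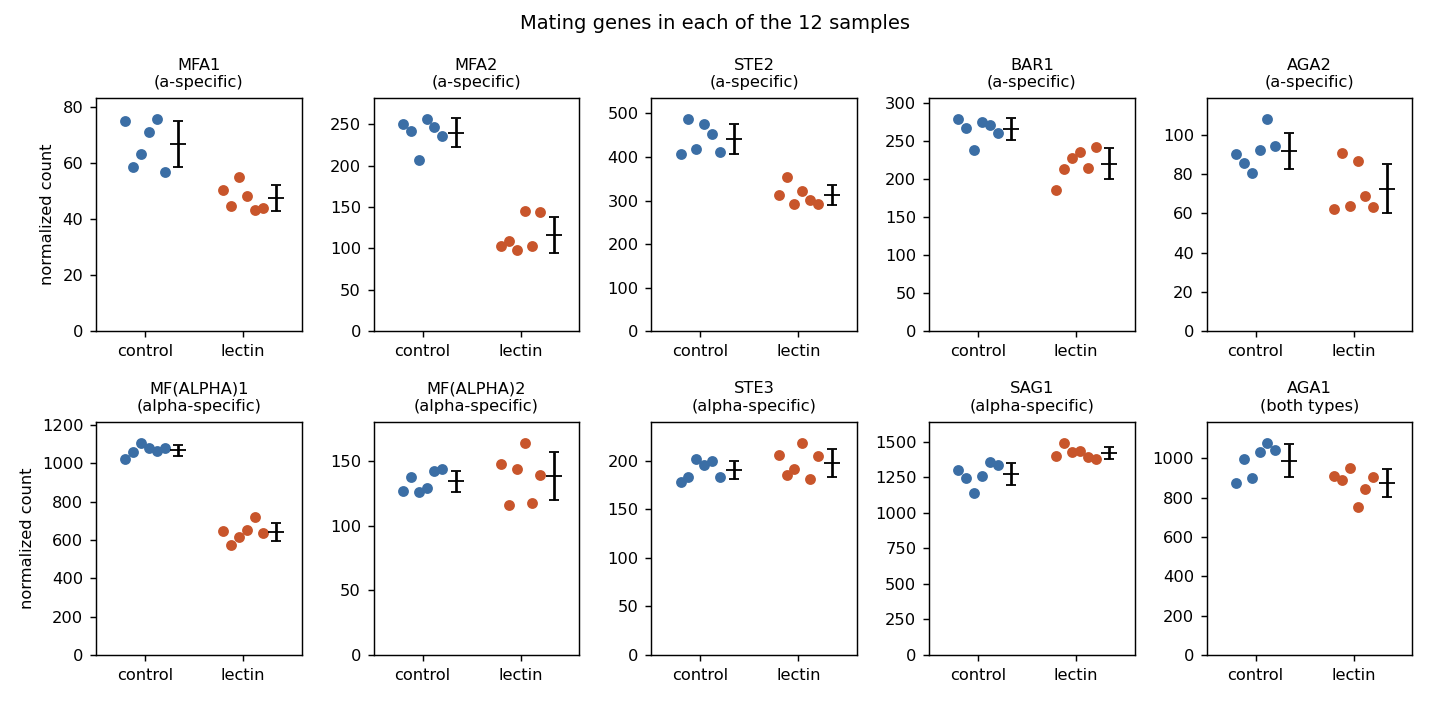
Normalized counts (counts divided by DESeq2 size factors, axes from 0) of the 10 mating genes in each of the 6 control (blue) and 6 lectin (orange) samples; black bars are the mean ± SD. Control and lectin points do not overlap in MFA1, MFA2, STE2 and MF(ALPHA)1, where lectin is lower, or in SAG1, where lectin is higher.

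MFA2, one of the a-factor genes, showed the largest difference. Its normalized counts were 206, 244 and 256 (lowest, median and highest) in the controls and 97.8, 106 and 145 with lectin. Control 4 was the lowest control and still above all lectin samples, and lectin 5 (145) and lectin 8 (143) stood above the other lectin samples, which reached 108 at most. The mean went from 239 ± 17.7 to 117 ± 21.5 (SD, n = 6), and its log2 fold change was -1.03 ± 0.107 (SE). Only 9 of the tested genes (0.144%) were called lower with a log2 fold change of -1 or below, and MFA2 was just inside that limit. Its log2 fold change passed to the other side of that limit without lectin 2 (-0.998), lectin 4 (-0.988) or lectin 6 (-0.997), and was -1.11 without lectin 5.

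MFA1, which encodes nearly the same pheromone, had 56.8, 67.3 and 75.8 normalized counts in the controls and 43.2, 46.6 and 55.3 with lectin. The groups were separate, but by a narrow margin, between control 8 at 56.8 and lectin 4 at 55.3. The log2 fold change was -0.49 ± 0.143 (SE). Raw counts of MFA1 were 42 to 71, so counting error is a large part of its spread.

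The ratio of MFA2 to MFA1 was lower on average with lectin, at 2.48 ± 0.563 against 3.62 ± 0.416 in the controls (SD, n = 6). Whether the changes of these genes differ was not tested. MFA2 had 3.25 to 4.14 times the normalized count of MFA1 in the controls and 1.77 to 3.27 times in the lectin samples. The ranges overlapped narrowly, through lectin 8 at 3.27 against control 7 at 3.25 and control 4 at 3.26.

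STE2, the receptor through which a cells sense alpha-factor, had 406, 436 and 487 normalized counts in the controls and 292, 308 and 354 with lectin. No lectin sample reached the lowest control. Its log2 fold change was -0.50 ± 0.072 (SE), close to that of MFA1.

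BAR1, a secreted protease by which a cells clear alpha-factor, had 239, 269 and 279 normalized counts in the controls and 186, 222 and 243 with lectin. The groups overlapped through lectin 8 (243) and control 4 (239). Its log2 fold change was -0.27 ± 0.079 (SE).

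AGA2, the adhesive subunit of the a-agglutinin, had 80.6, 91.1 and 108 normalized counts in the controls and 62.4, 66.1 and 90.4 with lectin. Lectin 3 (90.4) and lectin 5 (86.4) lay within the control range and the other 4 lectin samples below it. The log2 fold change was -0.34 ± 0.129 (SE). AGA2 kept its call without control 3, control 4, lectin 3 or lectin 5, and lost it when any one of the other 8 samples was left out, where the log2 fold change lay between -0.34 and -0.28.

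The alpha-specific genes split. MF(ALPHA)1, the main alpha-factor gene, had 1020, 1072 and 1107 normalized counts in the controls and 573, 642 and 718 with lectin, so that the groups were far apart. The mean went from 1068 ± 29.2 to 640 ± 47.9 (SD, n = 6), and its log2 fold change was -0.74 ± 0.054 (SE). MF(ALPHA)2, the minor alpha-factor gene, had 126, 133 and 144 normalized counts in the controls and 116, 141 and 164 with lectin.

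The lectin values of MF(ALPHA)2 spread to both sides of the controls, and its log2 fold change was 0.04 ± 0.103 (SE). MF(ALPHA)1 had 7.50 to 8.80 times the normalized count of MF(ALPHA)2 in the controls and 3.99 to 6.12 times with lectin, without overlap. STE3, the receptor of alpha cells for a-factor, had 179, 190 and 202 normalized counts in the controls and 181, 198 and 219 with lectin, and its log2 fold change was 0.05 ± 0.081 (SE). The STE3 groups overlapped over most of their range. Without lectin 5 the log2 fold change of STE3 was 0.02 and that of MF(ALPHA)2 was -0.014.

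SAG1, alpha-agglutinin, was the one gene of the 10 called higher. It had 1138, 1278 and 1356 normalized counts in the controls and 1376, 1416 and 1492 with lectin. The gap between the groups was small, from control 7 at 1356 to lectin 8 at 1376. The log2 fold change was 0.16 ± 0.048 (SE), smaller in size than that of MF(ALPHA)1 and of opposite sign.

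AGA1, to which Aga2 is linked at the cell wall, had 873, 1014 and 1078 normalized counts in the controls and 751, 898 and 951 with lectin. The groups overlapped, and the log2 fold change was -0.17 ± 0.069 (SE). Its call was lost when control 3, 6, 7 or 8 or lectin 3, 5 or 6 was left out, with log2 fold changes from -0.18 to -0.13.

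A pair of a-specific genes outside the group of 10 was compared as well; they too were listed with earlier results of these data known, so their p-values are not independent evidence. STE6, the exporter of a-factor, had 865, 962 and 980 normalized counts in the controls and 858, 946 and 950 with lectin. Its log2 fold change was -0.02 ± 0.049 (SE; DESeq2 adjusted p = 0.776; 95% interval -0.12 to 0.07), and 0.00045 without lectin 5. ASG7, an inhibitor of signalling, had 162, 183 and 206 normalized counts in the controls and 142, 168 and 191 with lectin. Its log2 fold change was -0.12 ± 0.095 (SE; DESeq2 adjusted p = 0.343; 95% interval -0.31 to 0.06), and -0.08 without lectin 6.

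Neither STE6 nor ASG7 passed the test, although both carry the operator shown above, and in both the groups overlapped. Whether their changes differ from those of the other a-specific genes was not tested. The normalized count of MFA2 was 0.211 to 0.285 times that of STE6 in the controls and 0.103 to 0.169 times with lectin. This ratio follows the decrease of MFA2, which was known when the genes were listed, and is not separate evidence. It was not taken for the other a-specific genes.

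**Figure D3:**
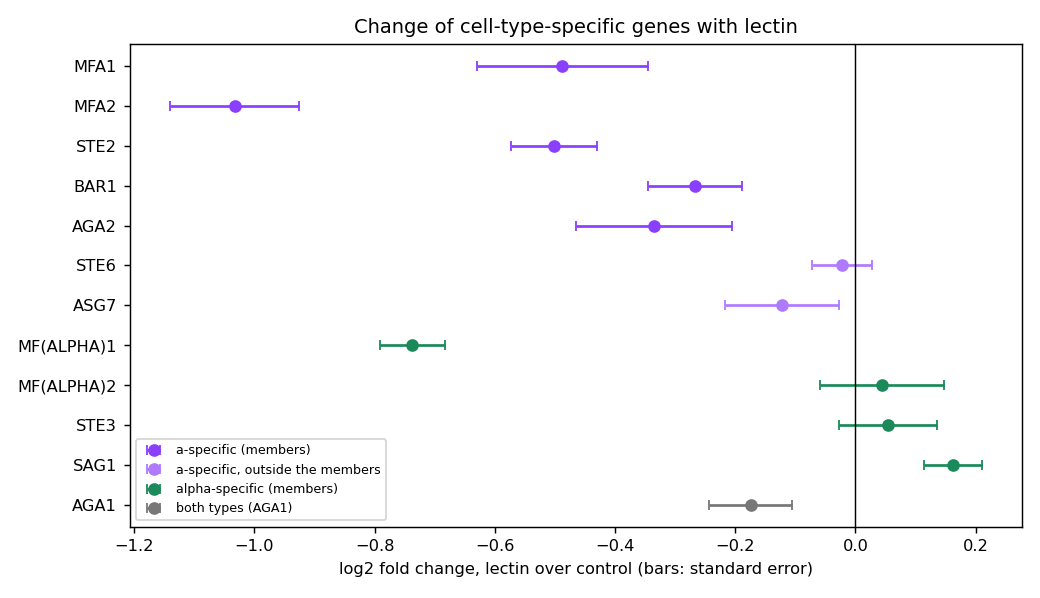
Log2 fold change, lectin over control, of the 10 mating genes and of STE6 and ASG7, with standard errors from DESeq2 (6 samples per group). The 5 a-specific genes of the group lie between -1.03 and -0.27, STE6 and ASG7 nearer to 0, and the alpha-specific genes run from -0.74 for MF(ALPHA)1 to 0.16 for SAG1.

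Summed over each set, the a-specific genes held 56.3 to 62.5 CPM in the controls and 38.5 to 44.4 with lectin. The 4 alpha-specific genes held 142 to 149 CPM in the controls and 128 to 134 with lectin. Neither sum overlapped between the groups, and the second follows MF(ALPHA)1, since SAG1, STE3 and MF(ALPHA)2 had higher mean normalized counts with lectin (MF(ALPHA)2 only while lectin 5 is included).

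Variation within the groups was compared between pairs of the 10 genes. Pearson's r was taken over 12 samples on deviations from the group means of log2(normalized count + 1), which share library and depth. Over the 45 pairs of the 10 genes it ran from -0.45 (MF(ALPHA)1 and SAG1) to 0.72 (MFA2 and BAR1). The a-factor pair MFA1 and MFA2 had an r of -0.04, and MF(ALPHA)1 and MF(ALPHA)2 had 0.06. MF(ALPHA)2 and STE3 reached 0.66. Where counts are low, as in MFA1 (42 to 71 raw counts) and AGA2 (60 to 101), counting error pulls r toward 0. A low r therefore cannot show that such genes vary apart.

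Over the 5843 genes whose normalized counts averaged 50 or more, those most like MFA2 over the 12 samples were CHO1 (r = 0.983), VRG4 (0.977), CTR1 (0.977), ERG5 (0.975) and LOG1 (0.974). This likeness includes the difference between the groups, and all 5 were lower with lectin, with log2 fold changes from -1.22 (CTR1) to -0.41 (LOG1). On deviations from the group means the nearest were FSF1 (0.932), XPT1 (0.925), RPA12 (0.910), MRPL3 (0.889) and TIM13 (0.883). Each set of 5 is the top of 5843 genes over only 12 samples. MFA2 stood apart in lectin 5 (145 normalized counts) and lectin 8 (143), and how far the second ranking rests on them was not tested.

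The rest of the mating machinery was compared in lists of 67 further genes, of which 62 were tested. These lists too were drawn up with earlier results of these data known, so their p-values are not independent evidence. DESeq2 called 2 of the 62 lower and 10 higher (3.23% and 16.1%), against 16.1% and 15.4% of all tested genes. Their median log2 fold change was 0.03. The number called lower was 1 without control 3, control 8 or lectin 8 and 4 without control 4.

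Of the 11 haploid-specific genes, 1 fell, 1 rose (9.09% each, against 16.1% lower and 15.4% higher over all tested genes) and 9 did not pass the test. GPA1, the alpha subunit of the pheromone receptors' G protein, fell from 414 ± 19.6 to 359 ± 16.8 normalized counts (SD, n = 6) without overlap, by 0.20 on the log2 scale (DESeq2 adjusted p = 0.00468). FAR1, which halts the cell cycle in response to pheromone, rose from 1161 ± 50.5 to 1340 ± 86.5 (SD, n = 6), also without overlap, and its log2 fold change was 0.21 (DESeq2 adjusted p = 0.000586). FUS3 had a log2 fold change of -0.14 and did not pass the test (DESeq2 adjusted p = 0.0791).

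Of 13 pheromone signalling genes, 2 rose (15.4%, the same share as over all tested genes) and none was called lower (16.1% over all). TEC1, a partner of Ste12 in filamentous growth, rose from 655 ± 34.8 to 776 ± 58.4 normalized counts (SD, n = 6), and its log2 fold change was 0.24 (DESeq2 adjusted p = 0.000456). STE20, the kinase that starts the mating cascade, rose from 1440 ± 35.5 to 1594 ± 97.7 (SD, n = 6), and its log2 fold change was 0.15 (DESeq2 adjusted p = 0.0102). STE12 itself had a log2 fold change of 0.02 ± 0.050 (SE; DESeq2 adjusted p = 0.795; named after its value was seen).

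Of 16 genes that pheromone induces, 4 rose (25%, against 15.4% of all tested genes) and none was called lower (16.1% over all). FUS2, needed for cell fusion, rose from 134 ± 15.03 to 202 ± 20.3 normalized counts (SD, n = 6) without overlap, and its log2 fold change was 0.59 (DESeq2 adjusted p = 4.7e-08). PRM5, which is also induced by cell wall stress, rose from 1667 ± 58.7 to 2026 ± 125 (SD, n = 6) without overlap, and its log2 fold change was 0.28 (DESeq2 adjusted p = 1.0e-07). PCL2, a cyclin of the G1 phase, rose with a log2 fold change of 0.17 (DESeq2 adjusted p = 0.00503).

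KAR3, a motor protein of nuclear fusion, was the fourth of these, named after its value was seen, with a log2 fold change of 0.16 (DESeq2 adjusted p = 0.0118). FUS1, the classic pheromone-induced gene, had a log2 fold change of 0.06 ± 0.074 (SE; DESeq2 adjusted p = 0.546) and was likewise named after its value was seen.

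The a-factor maturation genes, which lipidate and trim the precursor, had 1 of 5 called lower (20%, against 16.1% of all tested genes) and none higher (15.4% over all). STE14, the methyltransferase that acts on the tail of a-factor, fell from 233 ± 15.7 to 200 ± 19.2 normalized counts (SD, n = 6), by 0.22 on the log2 scale (DESeq2 adjusted p = 0.0258). That call was lost without control 3, control 8, lectin 4 or lectin 8, where the log2 fold change lay between -0.22 and -0.19. None of the 3 alpha-factor maturation genes was called, where 31.5% of all tested genes were called either way.

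Among 7 regulators of mating type, 2 rose (28.6%, against 15.4% of all tested genes) and none was called lower (16.1% over all). MCM1, the partner of alpha1 and alpha2, rose from 3605 ± 176 to 3968 ± 109 normalized counts (SD, n = 6), and its log2 fold change was 0.14 (DESeq2 adjusted p = 0.00314). SIR2, the deacetylase that keeps HML and HMR silent, rose from 343 ± 20.1 to 397 ± 24.8 (SD, n = 6), and its log2 fold change was 0.21 (DESeq2 adjusted p = 0.00645). Of the 3 meiosis-entry genes tested, 1 rose (33.3%, against 15.4% of all tested genes) and none was called lower (16.1% over all). IME1 went from 784 ± 47.2 to 1037 ± 85.9 normalized counts (SD, n = 6) without overlap, and its log2 fold change was 0.40 (DESeq2 adjusted p = 4.1e-09); IME2 and NDT80 were not called.

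Of 230 tested genes under 300 bases, the size class of MFA1, MFA2 and AGA2, 12.6% were called lower and 16.1% higher, with a median log2 fold change of 0.03.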

How the data were processed

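The deposited values are raw counts of reads for each gene, made by the authors from poly-A selected paired-end libraries with fastp, HISAT2 and featureCounts on genome build R64, per the submitters' processing notes and the labels' protocols. Versions, annotation, strand setting and the treatment of multi-mapping reads are not given in the sources used here; dropped or divided reads would lower genes with identical copies or overlaps. The libraries were described as strand-specific.

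The 6237 features that reached 10 counts in 6 or more samples were tested with the DESeq2 1.42.0 Wald test (R 4.3.3), the tool the labels name, with lectin against control as the design and Benjamini-Hochberg adjustment over all of them. Normalized counts are counts divided by median-of-ratios size factors. SE is the standard error of an unshrunken log2 fold change. edgeR 4.0.16 and limma-voom (limma 3.58.1), other scalings and filters, leaving out each sample and a replicate block were the alternatives. Same-group libraries differed by more than counting error (chi-square over its degrees of freedom 6.78 to 59.1), so none was deposited again. The fitting steps were tested on simulated data.

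Names, lengths and sequences came from the RefSeq R64 assembly, which matched 6047 of 7192 identifiers. The genes and lists were chosen with earlier results of these data known. Named were the 10 genes, STE6, ASG7 and the mating-type loci, and up to 3 called genes per direction in each further list by size of change; the 5 genes most like MFA2 were taken by Pearson's r. Others are marked as named after their values were seen.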

Additional observations from a re-analysis of the deposited data

Results flagged for a closer look

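In 50 groups of 6 values (25 named genes in each of the 2 treatments), 2 had a lowest sample set apart from its group by more than Dixon's 95% limit of 0.625 of the range, where chance gives 2.5. Lectin 5 had 857.8 normalized counts of STE6, while the remaining lectin samples had 923 to 950. Lectin 4 had 325.2 normalized counts of GPA1, while the remaining ones had 359 to 370. No gene of the group of 10 was set apart in this way.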

How the results depend on the processing

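Calls of the 10 genes were the same 8 in number with edgeR, limma-voom, both other scalings, both other filters and no independent filtering. With one sample left out there were 6 to 8 (5 to 7 lower, 1 higher, 4 to 5 a-specific genes lower). Genes called over the whole table ran from 840 to 1222 lower and 806 to 1197 higher. The other mating genes had 1 to 4 called lower and 10 to 13 higher.

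Samples of the same number in both groups showed no clear pairing: their deviations correlated at -0.198 to 0.241 over 5 pairs. Of the 5 controls, 1 correlated best with its own number. The numbers could not be tied to cultures, and 5 pairs are too few to settle whether they pair the samples. With the number as a replicate block on 10 samples, 4 of the 10 genes were called, 3 of them lower, 2 of these a-specific, and 0 other mating genes were lower (8 higher). Named genes whose calls were lost with the block were MFA1, BAR1, AGA2, AGA1, GPA1, STE14, SIR2 and PCL2. Without the block the same 10 samples gave 7 called, 6 lower. The cause was not tested.

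Of 524 values of 25 genes, 493 kept direction and side of the threshold, 28 were weaker and 3 changed sign: MF(ALPHA)2 to -0.014 without lectin 5 (up to 0.088 with another sample left out) and to -0.0016 with the replicate block, and STE6 to 0.00045 without lectin 5 (down to -0.045 with another left out). MFA2 ran from -1.11 to -0.99 and MF(ALPHA)1 from -0.77 to -0.71. Raw counts were 42 to 71 for MFA1 and 5 to 18 for HMRA2.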
